A study of Homo sapiens with 26 samples.

Results

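A set of 38 human genes for the lysosome and for autophagy was followed in RNA sequencing of MV4-11 cells, an established line of acute myeloid leukaemia that carries a FLT3 internal tandem duplication. Members were taken by gene symbol and fell into 6 classes: 8 cathepsins, 9 other acid hydrolases, 2 soluble cofactors, 7 proteins of the lysosomal membrane and proton pump, 3 transcription factors of the MiT/TFE family and 9 autophagy genes. The count tables held 37 of the 38 members among 16430 genes, and the FPKM tables held all 38 among 64235 entries. MITF, the member without counts, had at most 0.355 FPKM.

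The drug experiment had 18 libraries in 6 groups of 3, all of cells left alive after treatment. The groups were 100 nM dexamethasone (a synthetic glucocorticoid) for 48 h, 10 nM quizartinib (a FLT3 kinase inhibitor) for 48 h, both drugs for 48 h, 10 nM quizartinib for 5 days, 10 nM quizartinib for 5 days with 100 nM dexamethasone from day 3, and DMSO (the solvent) for 48 h. The recovery experiment had 8 libraries in 4 groups of 2: cells labelled untreated (the series' design text speaks of DMSO survivors), cells alive after 48 h in quizartinib at 100 nM (the survivors), and such cells kept for a further 13 or 30 days in drug-free medium. All groups shared the line and the serum-containing medium, and neither DMSO nor dexamethasone alone was sampled at 5 days. The labels do not say that libraries of a group came from separate cultures, so each p below measures the spread between these libraries.

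Lysosomes break down protein, glycan, lipid and nucleic acid with hydrolases that work at acid pH, which a membrane proton pump maintains. Autophagy delivers cytoplasmic cargo to them in vesicles built with ATG proteins and coated with proteins of the LC3 and GABARAP families. TFEB, TFE3 and MITF bind a short DNA motif found near the start of many of these genes, and the kinase mTORC1 keeps them in the cytoplasm when nutrients and growth signals are plentiful. Cells of the monocyte lineage, to which MV4-11 is related, are rich in lysosomes.

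Library totals of the drug experiment ran from 14795190 to 24990476 counts. FKBP5, a glucocorticoid receptor target, was at 1439, 1420.4 and 1524 CPM (counts scaled to a common library size after TMM normalization) with dexamethasone and 102, 112 and 97.7 CPM with DMSO. MKI67, a proliferation marker, was at 5.29, 5.53 and 8.37 CPM with quizartinib at 48 h and 1023, 928 and 820.5 CPM with DMSO. The noncoding RNAs 7SK and 7SL took 16.02% to 31.6% of counts in quizartinib-containing groups and 9.73% to 12.41% with dexamethasone alone or DMSO. Of 8 myeloid markers, all were detected in both experiments, while the T cell genes CD3D and CD3E, the B cell gene MS4A1 and all 4 erythroid markers had no row among the counts. Of 12 monocyte and macrophage markers, 9 had counts and CD14, FCGR3A and MRC1 had none. Their summed level was 202 to 205 CPM with quizartinib at 48 h, 155 to 168 CPM with both drugs, 41.1 to 109 CPM with dexamethasone and 31.2 to 73.4 CPM with DMSO. Most of the quizartinib sum was CD68, itself a lysosomal membrane protein, with 161, 158 and 159 CPM against 31.7, 24.4 and 57.6 CPM with DMSO. By the edgeR test used below, 3 of the 9 were higher with quizartinib than with DMSO and 0 lower. In every quizartinib library at 48 h, 5 of the 9 were under 1 CPM. The third libraries of the 48 h groups deviated together from their group means over well-expressed genes, not in single genes alone. Correlations of these deviations ran from 0.239 (both drugs and DMSO) to 0.815 (dexamethasone and DMSO). Counts of members are therefore also given without these libraries. The share of all genes called in those fits is not given here. A bulk value does not tell a change in every cell from a change in the share of cells that carry the RNA. What these shifts contributed to the members' changes was not tested. Exons of 17 members overlap another gene, 15 on the opposite strand and 7 on the same strand, some on both. Examples on the opposite strand are LIPA with IFIT2, WIPI1 with ARSG, and DNASE2 and GABARAPL1 with antisense genes. The strand setting of the counting is not given in the sources used here, so reads of these members may be mixed. GABARAPL1, MAP1LC3B and GUSB have near-identical copies elsewhere and are uncertain in the same way.

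Levels between genes were compared in FPKM, which is per transcript length. In untreated cells MAN2B1, the lysosomal alpha-mannosidase, stood first with 349.8 and 369 FPKM, followed by the tripeptidyl peptidase TPP1 with 154 and 132, the carboxypeptidase CTSA with 145 and 139 and CTSZ, another carboxypeptidase, with 146 and 124 FPKM. TPP1, CTSA and CTSZ overlapped in their ranges, as did CTSZ and the dipeptidyl peptidase CTSC, at 121 and 133 FPKM, so these neighbours do not differ beyond their spread. The initiation factor BECN1 led the autophagy genes with 98.5 and 108 FPKM, and the kinase ULK1 had 5.34 and 4.87. TFE3, at 10.3 and 9.6 FPKM, stood above TFEB, at 5.13 and 4.99. At the low end were GABARAPL1 with 4.21 and 1.77, CTSL with 0.81 and 0 and the acid endonuclease DNASE2 with 0.51 and 0.244 FPKM. NEU1, the lysosomal sialidase, is listed at 0 in all 8 FPKM libraries, where its symbol has 8 entries, although it had 25.9, 25.8 and 44.1 CPM with DMSO; its FPKM were therefore not used.

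Members of all 6 classes were among those called higher with quizartinib at 48 h. With 59.4% of all genes called, a call in every class is no result about the classes. Of 37 members tested, 19 were higher and 3 lower than with DMSO (edgeR quasi-likelihood test, Benjamini-Hochberg adjusted p under 0.05 over all genes, used throughout the drug experiment as the call). That is 51.4% and 8.11% of members, where 29.0% and 30.4% of all 16430 genes were called higher and lower (59.4% in all). The median log2 fold change was 0.30 over the members and 0.02 over all genes.

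**Figure D1:**
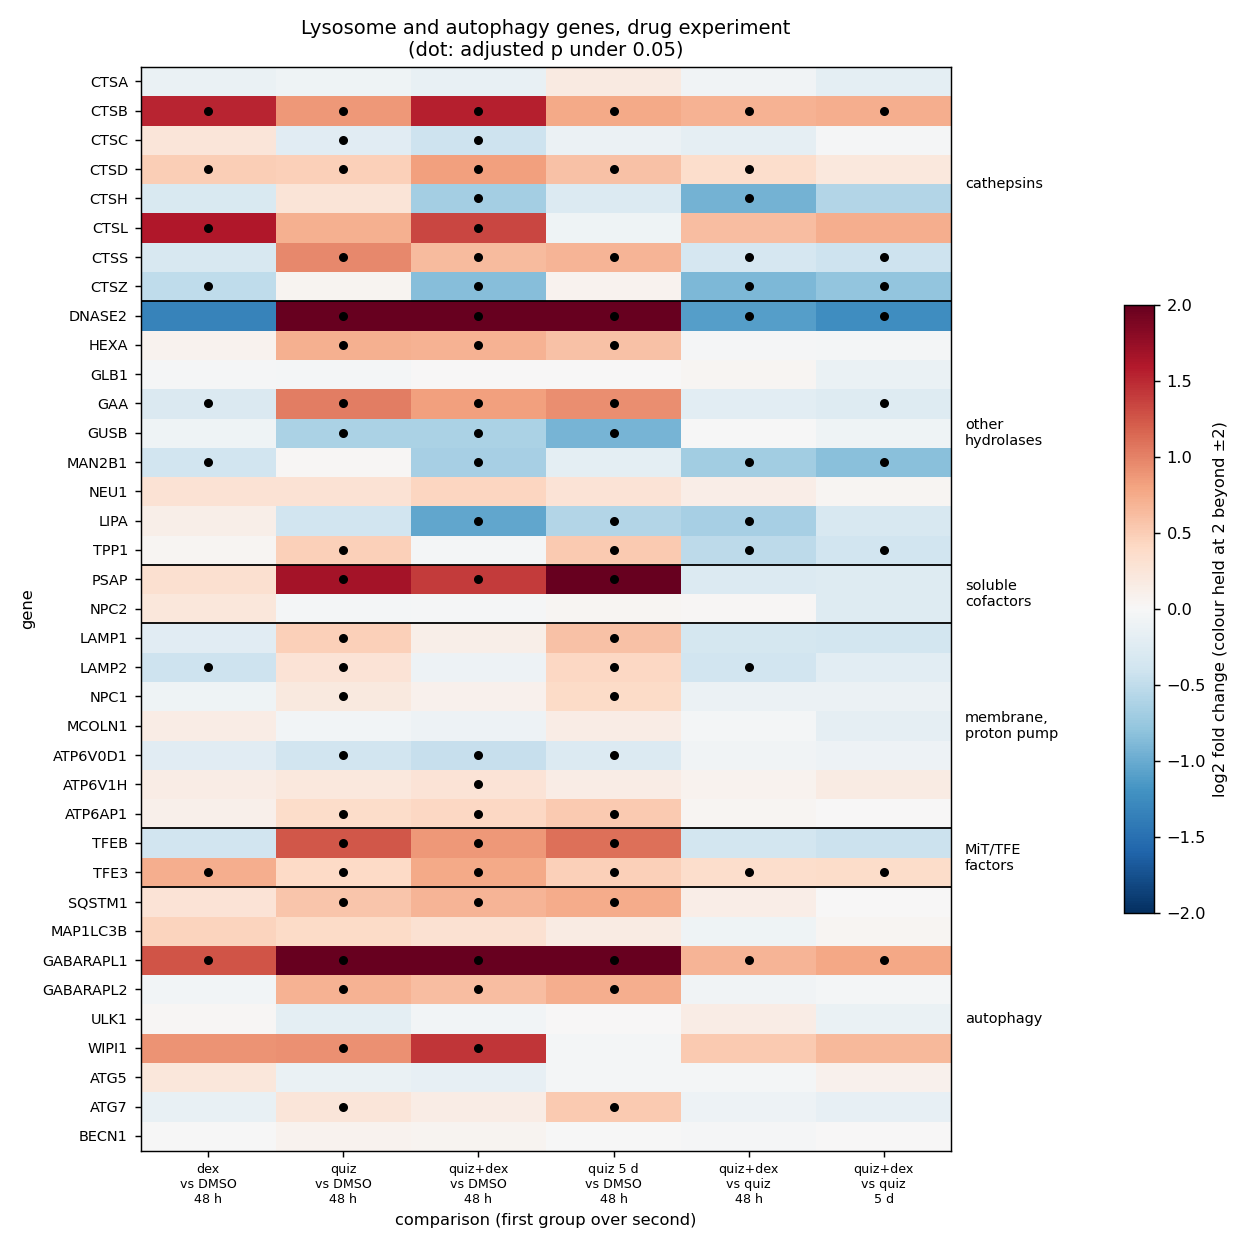
Log2 fold changes of the 37 members with counts (rows, by class) in 6 comparisons of the drug experiment (columns, first group over second), with colour held at 2 beyond that size and a dot where the adjusted p was under 0.05. Quizartinib columns hold mostly red dots, led by DNASE2 at 4.25 at 48 h, and the columns that add dexamethasone to quizartinib hold dots of both colours.

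Among cathepsins, 3 of 8 rose and 1 fell, where 29.0% and 30.4% of all genes were called higher and lower. The rises among cathepsins are near that share. CTSS, the cysteine protease that trims the invariant chain of MHC class II, had 80.1, 76.6 and 85.9 CPM with quizartinib, against 40.1, 42.2 and 41.7 CPM with DMSO. The groups did not overlap, and the log2 fold change was 0.97 ± 0.10 (± SE; edgeR adjusted p = 3.33e-07). CTSB, a cysteine protease with broad targets, had 150.4, 146 and 154 CPM with quizartinib and 85.2, 67.6 and 95 CPM with DMSO (0.86 ± 0.12, edgeR adjusted p = 1.16e-05). The aspartic protease CTSD rose by 0.48, a fold of 1.39. CTSC, which activates serine proteases of myeloid granules, was slightly lower, with 97.2, 100.2 and 99.5 CPM against 126, 121 and 101 CPM with DMSO (-0.23 ± 0.09, edgeR adjusted p = 0.0345).

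Among the other hydrolases, 4 of 9 rose and 1 fell (29.0% and 30.4% of all genes). DNASE2 (GRCh38 chromosome 19, 12875211 to 12881468), which digests DNA inside lysosomes, had 13.2, 10.7 and 15.6 CPM with quizartinib, against 0.731, 0.363 and 0.961 CPM with DMSO. Every quizartinib library lay far above every DMSO library, and the log2 fold change was 4.25 ± 0.34 (edgeR adjusted p = 1.31e-08), the largest of the members; the counts behind the groups were 812 and 46. GAA, which degrades glycogen, was at 119.8, 115 and 121 CPM with quizartinib and 63.1, 53.9 and 57.5 CPM with DMSO, a fold of 2.04 (1.03 ± 0.07, edgeR adjusted p = 1.79e-09). HEXA, a subunit of beta-hexosaminidase, rose 1.64-fold and TPP1 1.39-fold. GUSB, the beta-glucuronidase, went the other way, with 51.2, 52.4 and 54.9 CPM against 95.5, 67.2 and 82.8 CPM with DMSO (-0.63 ± 0.10, edgeR adjusted p = 3.1e-05).

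PSAP (chromosome 10, 71816298 to 71851375), the precursor of the saposins that present lipids to hydrolases, had 234, 229.6 and 239 CPM with quizartinib and 69.7, 61.8 and 89.8 CPM with DMSO. The groups lay far apart, and the fold was 3.17 (1.67 ± 0.15, edgeR adjusted p = 3.69e-08). The other soluble cofactor, the cholesterol carrier NPC2, was not called, with 22, 23 and 24.4 CPM against 21.3, 20.3 and 29.8 CPM.

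Of 7 membrane and proton pump genes, 4 rose and 1 fell (29.0% and 30.4% of all genes), by folds of 0.764 to 1.38. LAMP1, an abundant membrane glycoprotein, had 183, 188 and 189 CPM with quizartinib and 166, 128 and 111 CPM with DMSO (0.47 ± 0.13, edgeR adjusted p = 0.0044). LAMP2, its relative, the pump accessory subunit ATP6AP1 and the cholesterol exporter NPC1 rose by 0.28, 0.37 and 0.19 on the log2 scale. ATP6V0D1, a subunit of the pump's membrane sector, was lower with quizartinib, at 58.6, 60.7 and 60.9 CPM against 92.5, 75.9 and 67.6 CPM with DMSO (-0.39 ± 0.10, edgeR adjusted p = 0.00274).

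Both MiT/TFE factors with counts rose, where 29.0% of all genes were called higher. TFEB (chromosome 6, 41683978 to 41736259), the factor best known for lysosomal genes, had 26.5, 26.8 and 22.7 CPM with quizartinib, against 10.1, 6.54 and 15.5 CPM with DMSO, where libraries varied most (1.24 ± 0.24, edgeR adjusted p = 0.000234). TFE3 rose by 0.40 ± 0.10 on the log2 scale (edgeR adjusted p = 0.00326). These values are mRNA levels and carry no information on where the proteins were in the cell.

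Of 9 autophagy genes, 5 rose and none was called lower (29.0% and 30.4% of all genes). GABARAPL1 (chromosome 12, 10212458 to 10223130), a protein of the vesicle coat, was at 13.5, 14.3 and 14.9 CPM with quizartinib and 2.42, 3.5 and 3.8 CPM with DMSO. The groups lay far apart (2.13 ± 0.16, edgeR adjusted p = 6.14e-09). GABARAPL2, of the same family, rose 1.61-fold, and SQSTM1, the cargo receptor p62, 1.47-fold. ATG7, the enzyme that starts conjugation of the coat proteins, rose 1.19-fold. WIPI1, which binds the lipid of early vesicles, was called higher although its groups overlapped, at 2.77, 2 and 1.18 CPM with quizartinib and 0.685, 1.41 and 1.05 CPM with DMSO (0.91 ± 0.37, edgeR adjusted p = 0.0404). ULK1, ATG5, BECN1 and MAP1LC3B were not called, and MAP1LC3B, the LC3 protein most used as a marker, differed between libraries of 1 treatment, with 44.9, 37.3 and 91.7 CPM with quizartinib and 30.9, 37.7 and 65 CPM with DMSO.

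Of these 22 calls, 18 held whichever library was left out. CTSC lost its call without any library but DMSO 3, WIPI1 without quizartinib 1 or 2 or DMSO 1 or 3, NPC1 without quizartinib 1 or 3 or DMSO 1, and LAMP2 without quizartinib 3 or DMSO 1; their edgeR or DESeq2 adjusted p over all alternatives reached 0.147, 0.219, 0.127 and 0.0723, from lows of 0.000835, 0.00856, 0.0188 and 0.00509. Without the libraries numbered 3, 25 members were called, 20 higher and 5 lower. The gains were NEU1, higher (0.55, edgeR adjusted p = 7.22e-05), and LIPA and CTSA, lower (edgeR adjusted p = 0.0197 and 0.0452). With the replicate number as a block, CTSH was also called higher (edgeR adjusted p = 0.0299) and LIPA lower (edgeR adjusted p = 0.0269).

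**Figure D2:**
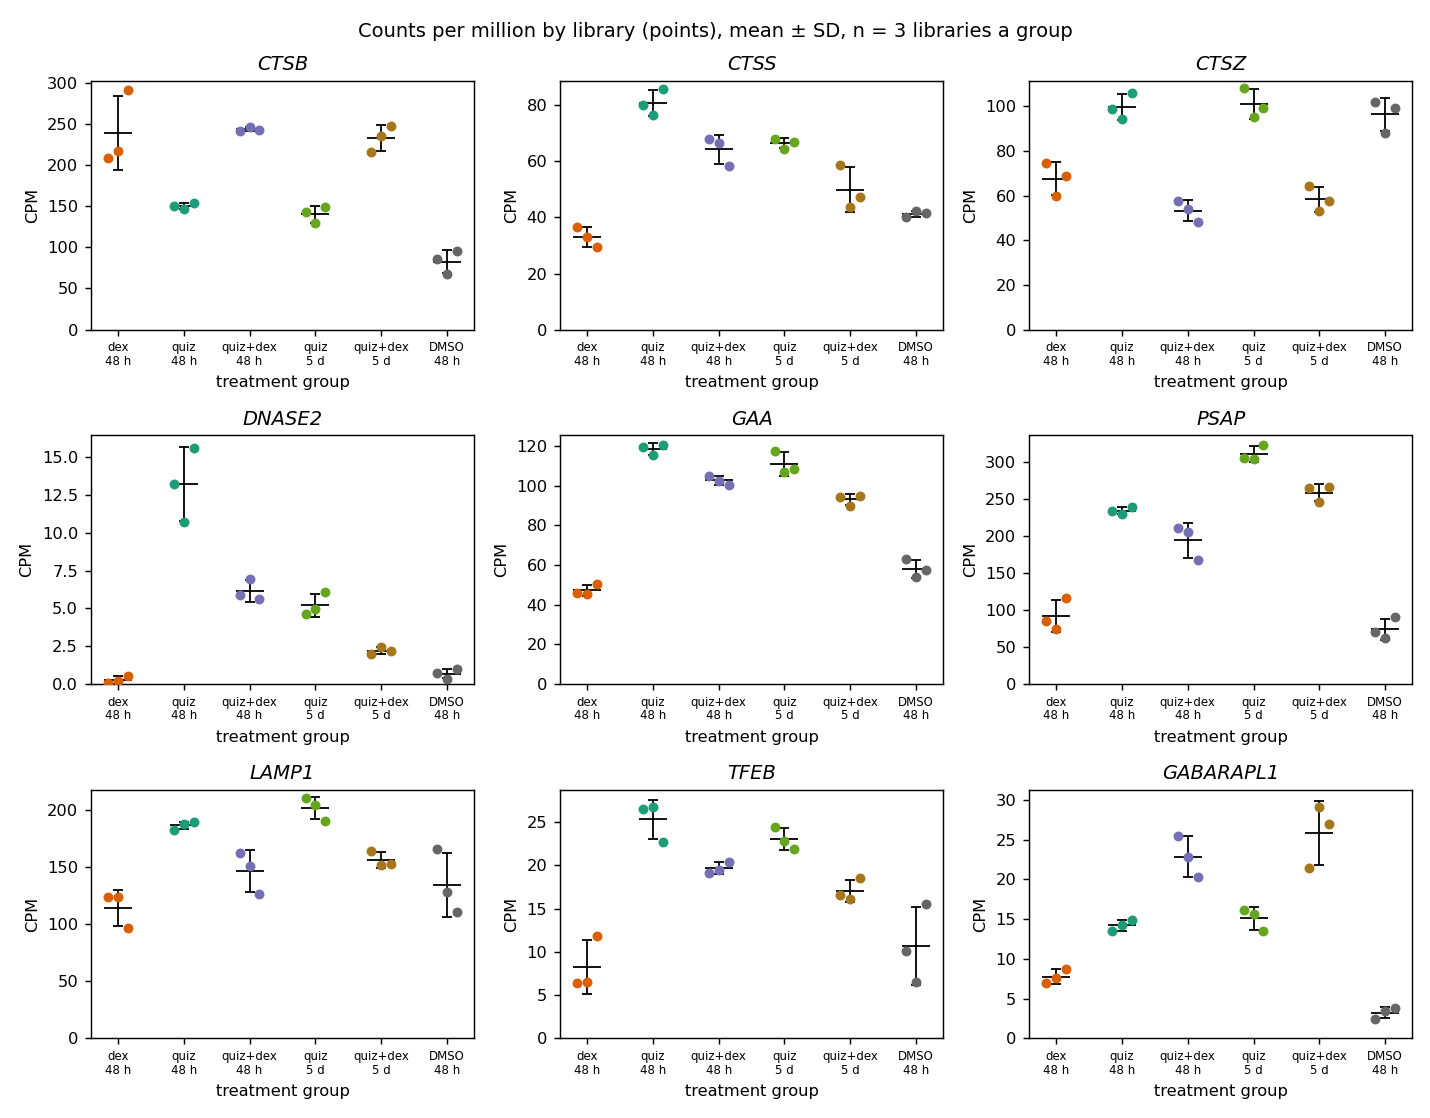
CPM of 9 members by treatment group (points are libraries, bars the mean ± SD of 3). DNASE2, PSAP, GAA and TFEB stand higher in each quizartinib group than with DMSO, CTSB is highest in the groups with dexamethasone, and CTSZ is lowest there.

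The promoters of the members were searched for the motif TCACGTG and its reverse complement CACGTGA, a form of the element bound by MiT/TFE factors. Windows ran from 250 bases before to 50 after the RefSeq start (GRCh38.p14), both strands were read, and overlapping matches were merged. The table held 42 windows for 32 members, of which 7 windows (16.7%), of 7 members, had a match, against 1303 of 35116 windows in all (3.71%). The motif was already known near the start of many such genes, so this higher share is no result of these data. The members were CTSA, CTSD, GAA, NEU1, LAMP1, MCOLN1 and ATP6V0D1. Of them, 3 were higher with quizartinib at 48 h, 1 was lower and 3 were not called; of 24 tested members with a window and no match, 11 were higher and 2 lower. DNASE2 and GABARAPL1, the members that rose most, had a window each and no match; no window was used for PSAP. A match is a run of letters, not a measured site.

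The 200 bases before the start are shown for 4 members with a match, 3 that rose with quizartinib and 1 that fell, on the strand of the gene, with motif matches in capitals.
GAA, chr17:80101381-80101580, plus strand: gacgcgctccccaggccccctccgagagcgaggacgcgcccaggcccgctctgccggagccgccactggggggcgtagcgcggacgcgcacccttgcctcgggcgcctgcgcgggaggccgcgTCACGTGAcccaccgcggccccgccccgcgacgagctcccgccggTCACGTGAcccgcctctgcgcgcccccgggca
LAMP1, chr13:113297039-113297238, plus strand: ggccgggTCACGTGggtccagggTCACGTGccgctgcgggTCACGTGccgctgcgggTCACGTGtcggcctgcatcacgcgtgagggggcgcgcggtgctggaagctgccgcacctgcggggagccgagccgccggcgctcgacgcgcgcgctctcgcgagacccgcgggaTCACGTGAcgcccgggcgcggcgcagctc
CTSD, chr11:1763928-1764127, minus strand: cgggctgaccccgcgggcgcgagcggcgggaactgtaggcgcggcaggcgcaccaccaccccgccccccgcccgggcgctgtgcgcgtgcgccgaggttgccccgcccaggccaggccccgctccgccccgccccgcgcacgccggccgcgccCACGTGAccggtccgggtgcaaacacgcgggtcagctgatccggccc
ATP6V0D1, chr16:67481158-67481357, minus strand: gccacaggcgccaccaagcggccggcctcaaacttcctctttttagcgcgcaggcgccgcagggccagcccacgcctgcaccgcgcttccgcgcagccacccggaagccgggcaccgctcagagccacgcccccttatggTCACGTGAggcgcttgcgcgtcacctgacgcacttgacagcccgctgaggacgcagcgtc
LAMP1, with 5 separate matches in these bases, rose by 0.47 on the log2 scale with quizartinib at 48 h and GAA, with 2, by 1.03. CTSD and ATP6V0D1 had 1 match each and moved in opposite directions, with log2 fold changes of 0.48 and -0.39.

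At 5 days of quizartinib, 18 members were higher and 3 lower than with DMSO at 48 h (48.6% and 8.11% of members; 30.7% and 32.1% of all genes). The drug and the time in culture cannot be told apart in this comparison. PSAP was at 305, 304 and 322 CPM, against 69.7, 61.8 and 89.8 CPM with DMSO (2.07 ± 0.15, edgeR adjusted p = 2.33e-09). DNASE2 was at 4.63, 4.94 and 6.08 CPM, against 0.731, 0.363 and 0.961 CPM (2.91 ± 0.35, edgeR adjusted p = 1.26e-06). Both groups of values stay clear of DMSO. GABARAPL1 had 16.1, 15.7 and 13.5 CPM (2.22 ± 0.16), TFEB 24.4, 22.8 and 21.8 CPM (1.10 ± 0.24), CTSB 143, 129 and 149 CPM (0.76 ± 0.12) and LAMP1 210.4, 204 and 191 CPM (0.58 ± 0.13), each called higher than DMSO. The falls were GUSB, at 42.8, 42.7 and 43.3 CPM (-0.93 ± 0.10, edgeR adjusted p = 3.46e-07), the acid lipase LIPA (-0.59 ± 0.17) and ATP6V0D1 (-0.27 ± 0.10), whose call was lost without quizartinib 2 or 3 or DMSO 1 (edgeR or DESeq2 adjusted p 0.00151 to 0.179 over the alternatives). With the replicate block, CTSH (edgeR adjusted p = 0.0451) and MAN2B1 (edgeR adjusted p = 0.0388) were called lower as well. Without the 48 h libraries numbered 3 the calls were 20 higher and 5 lower. That fit gained NEU1 and MAP1LC3B as higher (edgeR adjusted p = 2.37e-05 and 0.00273) and CTSC and MAN2B1 as lower (edgeR adjusted p = 0.00605 and 0.0217).

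Set directly against quizartinib at 48 h, 5 days of quizartinib changed 2 of 37 members, 1 each way (0.889% and 2.28% of all genes were called higher and lower, 3.16% in all). DNASE2 was lower at 5 days, at 4.63, 4.94 and 6.08 CPM against 13.2, 10.7 and 15.6 CPM at 48 h (-1.34 ± 0.28, edgeR adjusted p = 0.016). ATG7 was higher, at 56.8, 58 and 65.3 CPM against 49.7, 51.6 and 47.1 CPM (0.28 ± 0.07, edgeR adjusted p = 0.042). DNASE2 lost its call without quizartinib 48 h library 3 or 5 day library 1 or 2 (edgeR or DESeq2 adjusted p 1.43e-06 to 0.0891 over the alternatives), and ATG7 without any 1 library (0.0113 to 0.194). CTSH was called lower with the replicate block (edgeR adjusted p = 0.00835).

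Dexamethasone alone, set against DMSO at 48 h, raised 5 members and lowered 4 of 37 (13.5% and 10.8%; 5.5% and 6.63% of all genes), with a median log2 fold change of 0.03 over the members and -0.02 over all genes. CTSB rose most among well-expressed members, with 209, 216 and 291 CPM against 85.2, 67.6 and 95 CPM with DMSO. Every dexamethasone library lay well above every DMSO library, and the log2 fold change was 1.53 ± 0.12 (edgeR adjusted p = 2.1e-07). CTSD rose to 197, 212 and 252 CPM, against 175, 139 and 154 CPM (0.50 ± 0.10, edgeR adjusted p = 0.0034). CTSL, a cysteine protease close to CTSV in sequence, was called higher at 0.569, 0.55 and 0.812 CPM against 0.137, 0.273 and 0.218 CPM, which rests on 41 and 14 counts over the groups.

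Other cathepsins fell or were not called. CTSZ had 74.4, 59.9 and 68.6 CPM with dexamethasone and 102, 87.9 and 99.1 CPM with DMSO (-0.51 ± 0.10, edgeR adjusted p = 0.00194). Among the other hydrolases, MAN2B1 was lower at 278, 277 and 252 CPM against 391, 343 and 318 CPM (-0.38 ± 0.10, edgeR adjusted p = 0.0165), as was GAA (-0.30 ± 0.07, edgeR adjusted p = 0.0103). DNASE2 was not called, at 0.0437, 0.22 and 0.541 CPM against 0.731, 0.363 and 0.961 CPM, on 17 and 46 counts. It was called lower by DESeq2 (-1.33, adjusted p = 0.0327) and, by edgeR, without the libraries numbered 3 (-2.08, adjusted p = 0.0312). LAMP2 was lower at 137, 149.8 and 146 CPM against 176, 189 and 211 CPM (-0.41 ± 0.09, edgeR adjusted p = 0.00616).

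TFE3 was higher with dexamethasone, at 37.4, 40.3 and 45.9 CPM against 27.9, 23 and 24.1 CPM with DMSO (0.72 ± 0.10, edgeR adjusted p = 0.000141), while TFEB was not called, at 6.39, 6.49 and 11.9 CPM against 10.1, 6.54 and 15.5 CPM. GABARAPL1 was the 1 autophagy gene of 9 called, at 7, 7.59 and 8.79 CPM against 2.42, 3.5 and 3.8 CPM (1.26 ± 0.17, edgeR adjusted p = 5.14e-05). CTSL lost its call without any 1 library (edgeR or DESeq2 adjusted p 0.0419 to 0.166 over the alternatives), GAA without DMSO 1 (0.0024 to 0.181), and MAN2B1 without dexamethasone 3 or DMSO 1 (0.00296 to 0.105). With the replicate block, SQSTM1 was called higher (edgeR adjusted p = 0.0269) and CTSS lower (edgeR adjusted p = 0.0302). A fit of these 6 libraries alone called 3 members, CTSB, TFE3 and GABARAPL1. CTSD, CTSZ and LAMP2 lost their calls there too (edgeR adjusted p = 0.0936, 0.0544 and 0.0961). Without the libraries numbered 3 the calls were 7 higher and 5 lower.

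Adding dexamethasone to quizartinib for 48 h moved 12 of 37 members, 4 up and 8 down (10.8% and 21.6%), where 5.62% and 4.63% of all genes were called higher and lower. The median log2 fold change was -0.07 over the members and 0.005 over all genes. CTSB had 241, 246 and 242 CPM with both drugs and 150.4, 146 and 154 CPM with quizartinib, with no overlap (0.70 ± 0.12, edgeR adjusted p = 0.000944). CTSD rose by 0.35 ± 0.10. CTSZ was at 57.4, 54.1 and 48 CPM with both drugs and 98.6, 94.5 and 106 CPM with quizartinib (-0.90 ± 0.10, edgeR adjusted p = 7.97e-06), and the aminopeptidase CTSH at 7.94, 6.12 and 9.77 CPM and 13.5, 14.2 and 18 CPM (-0.94 ± 0.20, edgeR adjusted p = 0.00443). CTSS was also lower (-0.33 ± 0.10).

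Of the other hydrolases, 4 of 9 were lower with both drugs than with quizartinib and none was higher. DNASE2 was at 5.86, 6.96 and 5.59 CPM against 13.2, 10.7 and 15.6 CPM (-1.11 ± 0.28, edgeR adjusted p = 0.0152), which left it above every DMSO library. MAN2B1, at 218, 223 and 221 CPM against 365, 359 and 343 CPM, fell by 0.69 on the log2 scale (edgeR adjusted p = 0.000151), LIPA by 0.66 (edgeR adjusted p = 0.0186) and TPP1 by 0.52 (edgeR adjusted p = 0.00112). LAMP2 was at 198, 182 and 158 CPM against 229, 220.5 and 249 CPM (-0.38 ± 0.09, edgeR adjusted p = 0.012). GABARAPL1 was higher, at 25.5, 22.8 and 20.4 CPM against 13.5, 14.3 and 14.9 CPM (0.69 ± 0.14, edgeR adjusted p = 0.00442), and so was TFE3, at 37.7, 42.5 and 46.3 CPM against 34.7, 33.1 and 31.3 CPM (0.35 ± 0.10, edgeR adjusted p = 0.0369). PSAP and TFEB were not called, with 210.4, 205 and 167 and 19.1, 19.5 and 20.4 CPM with both drugs. TFEB was called lower by edgeR in a fit of these 6 libraries alone (-0.37, adjusted p = 0.0306) and without the libraries numbered 3 (-0.45, adjusted p = 0.0423).

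Leaving out quizartinib 3 left 6 members called and leaving out combination 3 left 7, and 6 of the 12 calls (CTSB, CTSZ, CTSH, MAN2B1, TPP1 and GABARAPL1) held whichever library was left out. CTSD, CTSS and TFE3 each lost their call without at least 5 of the 6 libraries, and over the alternatives their edgeR or DESeq2 adjusted p reached 0.152, 0.235 and 0.173 from lows of 0.00916, 0.0221 and 0.0182. DNASE2 was lost without quizartinib 3 or combination 1 or 3, and LIPA and LAMP2 without quizartinib 3 or combination 3. DNASE2, LIPA and LAMP2 reached 0.0689, 0.0912 and 0.0872 from 3.05e-05, 0.00297 and 0.00121. With the replicate block GAA (edgeR adjusted p = 0.0432) and LAMP1 (edgeR adjusted p = 0.0196) were called lower as well, and without the libraries numbered 3 the calls were 3 higher and 7 lower.

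At 5 days, with dexamethasone present from day 3, 3 members were higher and 6 lower than with quizartinib alone (8.11% and 16.2%; 4.6% and 4.04% of all genes). CTSB had 216, 235 and 247 CPM against 143, 129 and 149 CPM (0.73 ± 0.12, edgeR adjusted p = 0.000745), GABARAPL1 21.4, 29.2 and 27 CPM against 16.1, 15.7 and 13.5 CPM (0.78 ± 0.15, edgeR adjusted p = 0.00205) and TFE3 39.9, 47.1 and 47.5 CPM against 37, 33.5 and 34 CPM (0.36 ± 0.10, edgeR adjusted p = 0.0353). None of the 3 overlapped between groups, which adds no support beyond their calls. CTSZ had 64.3, 53.2 and 57.6 CPM against 108, 95 and 99.3 CPM (-0.79 ± 0.10, edgeR adjusted p = 3.79e-05) and DNASE2 1.98, 2.47 and 2.19 CPM against 4.63, 4.94 and 6.08 CPM (-1.24 ± 0.31, edgeR adjusted p = 0.0171). MAN2B1 (-0.83 ± 0.10), CTSS (-0.41 ± 0.10), TPP1 (-0.39 ± 0.09) and GAA (-0.25 ± 0.07) were the other falls. CTSB, CTSZ, MAN2B1 and GABARAPL1 held whichever library was left out, and the count ran from 4 to 7 over those 6 fits. A fit of these 6 libraries alone, and one without the 48 h libraries numbered 3, each called 14. Both gained CTSH, LIPA, TFEB, LAMP1 and PSAP, all lower. For TFEB the edgeR adjusted p was 0.00995 and 0.0191 in these fits, and for LAMP1 0.00221 and 0.00439. GAA lost its call without any 1 library, TFE3 without 5, CTSS and TPP1 without 4 and DNASE2 without 3, and over the alternatives their edgeR or DESeq2 adjusted p reached 0.186, 0.148, 0.108, 0.0764 and 0.0734 from 0.00418, 0.0091, 0.00164, 0.000705 and 7.3e-05.

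The effect of dexamethasone on top of quizartinib was also compared between 5 days and 48 h. No member differed by edgeR, where 0.0487% of all genes were called, 0 of 37 members had an unadjusted p under 0.05, and DESeq2 called 0. For CTSB the log2 fold changes were 0.73 ± 0.12 at 5 days and 0.70 ± 0.12 at 48 h, and for DNASE2 -1.24 ± 0.31 and -1.11 ± 0.28. Dexamethasone was present for different times, and a difference of this test that misses the threshold does not show equal effects.

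**Figure D3:**
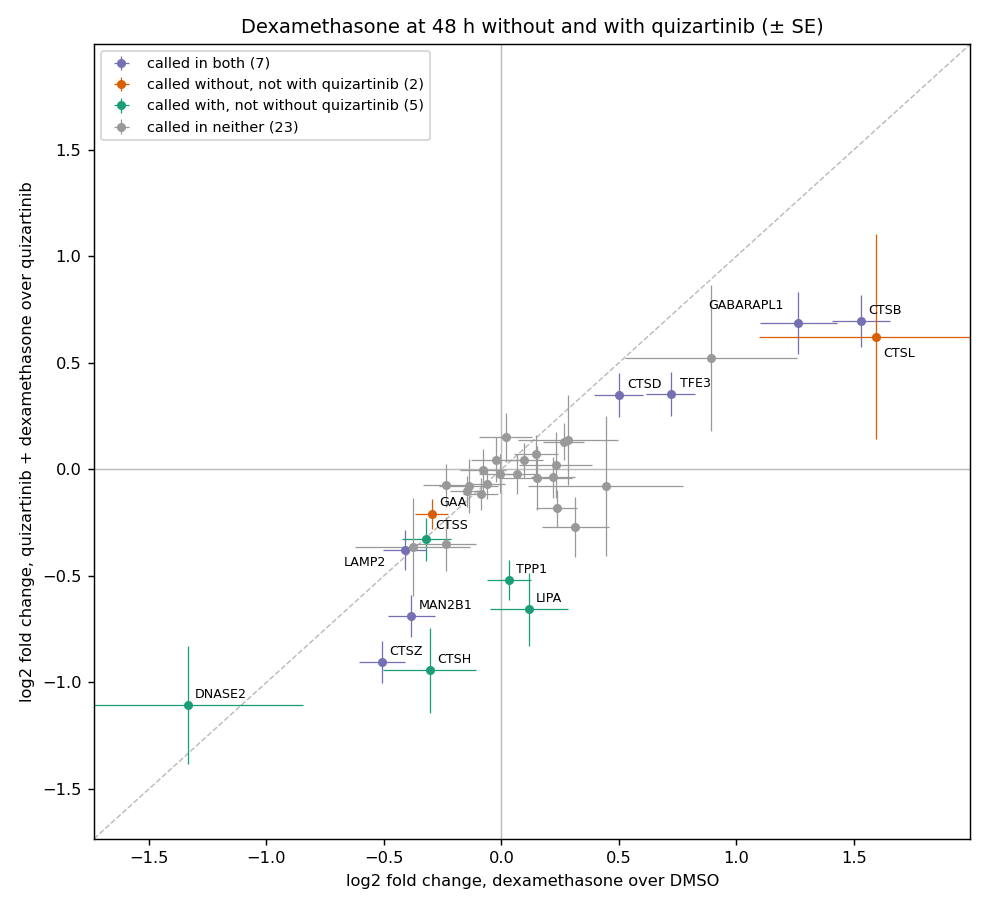
Log2 fold change (± SE) with dexamethasone at 48 h for 37 members, without quizartinib on the horizontal axis (over DMSO) and with quizartinib on the vertical axis (over quizartinib), coloured by call, with a dashed line of equality. CTSB lies at 1.53 and 0.70, GABARAPL1 at 1.26 and 0.69, and TPP1 at 0.03 and -0.52, below the line.

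The interaction asked whether dexamethasone acted differently with and without quizartinib at 48 h. It was called for 2 of 37 members, both lower (0.749% of all genes were called lower and 1.49% higher, 2.23% in all). CTSB rose less with quizartinib than without it, by 0.70 against 1.53 on the log2 scale, a difference of -0.83 ± 0.17 (edgeR adjusted p = 0.0153). With both drugs its level was 243 ± 2.64 CPM, within the range of the dexamethasone libraries, which averaged 239 ± 45.3 CPM (SD, n = 3 each). TPP1 fell by 0.52 with quizartinib and had a log2 fold change of 0.03 without it, a difference of -0.55 ± 0.13 (edgeR adjusted p = 0.0338). The call of CTSB held without any 1 of the 12 libraries and was lost in a fit of the 48 h groups alone (edgeR or DESeq2 adjusted p 0.000119 to 0.0622 over the alternatives), and that of TPP1 was lost without 8 of the 12 (0.000993 to 0.0857). With the replicate block, CTSH (-0.65, edgeR adjusted p = 0.0242) and LIPA (-0.75, edgeR adjusted p = 0.0496) made 4 calls, and without the libraries numbered 3 there was 1.

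Against DMSO, the combination at 48 h had 16 members higher and 7 lower (43.2% and 18.9%; 31.3% and 31.8% of all genes). This comparison shares its DMSO libraries with those above, so its values are set beside them as levels. DNASE2 was at 5.86, 6.96 and 5.59 CPM (3.15 ± 0.34), GABARAPL1 at 25.5, 22.8 and 20.4 CPM (2.82 ± 0.16), CTSB at 241, 246 and 242 CPM (1.56 ± 0.12), PSAP at 210.4, 205 and 167 CPM (1.40 ± 0.15), TFEB at 19.1, 19.5 and 20.4 CPM (0.87 ± 0.24) and ATP6AP1 at 99.7, 94.7 and 80.2 CPM (0.41 ± 0.08), each called higher by edgeR. GABARAPL1, CTSB, CTSD and TFE3 were called higher with either drug alone as well. The falls were LIPA, at 29.3, 28.3 and 24.4 CPM against 46.7, 51.1 and 71.6 CPM (-1.05 ± 0.17, edgeR adjusted p = 4.25e-05), CTSZ (-0.86 ± 0.10), CTSH (-0.68 ± 0.20), MAN2B1 (-0.67 ± 0.10), GUSB (-0.63 ± 0.10), ATP6V0D1 (-0.46 ± 0.10) and CTSC (-0.41 ± 0.09). CTSH lost its call without DMSO 3, CTSL without combination 3 or DMSO 1 or 3, and the pump subunit ATP6V1H without combination 3 or DMSO 3 (edgeR or DESeq2 adjusted p up to 0.0567, 0.185 and 0.233 over the alternatives, from 4.7e-05, 0.0187 and 0.00896). With the replicate block NEU1 was called higher (edgeR adjusted p = 0.0254), and without the libraries numbered 3 the calls were 17 higher and 8 lower. The latter fit gained NEU1, MAP1LC3B and NPC2 as higher (edgeR adjusted p = 9.3e-07, 0.0124 and 0.0483) and CTSA as lower (edgeR adjusted p = 0.0255). ATP6V1H and CTSL were lost there.

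The recovery experiment gives FPKM in 2 libraries a stage, and its calls are limma adjusted p under 0.05 on log2(FPKM + 1), a scale that understates the change of low genes. Survivors of 48 h in 100 nM quizartinib had 12 of 36 tested members higher than untreated cells and none lower (33.3%; 8.14% of 18098 genes were called higher and 6.39% lower). The median over all genes was itself 0.18 higher on the log2 scale in survivors and that over the members 0.56; with libraries shifted to 1 median, 8 members were called higher and 1, ATG5, lower (LAMP2, CTSD, GABARAPL1 and GLB1 lost their calls), and with no filter on low FPKM 4 were called. Leaving out any 1 of the 4 libraries ended every call, with lowest limma adjusted p of 0.0719 to 0.139, so each statement below rests on all 4.

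Of the cathepsins, CTSB had 269 and 189.8 FPKM in survivors and 62.6 and 43.2 FPKM in untreated cells (2.10 ± 0.25, limma adjusted p = 0.0179), CTSS 80.2 and 90.2 against 19.3 and 24.3 FPKM (1.93 ± 0.33, limma adjusted p = 0.0256), and CTSD was called higher too (1.01 ± 0.23). DNASE2 had 12 and 16.1 FPKM against 0.51 and 0.244 (3.44 ± 0.35, limma adjusted p = 0.0135), and GAA, TPP1 and the beta-galactosidase GLB1 rose by 1.66, 1.60 and 1.08 on the log2 scale. PSAP had 310.5 and 146 against 46.6 and 23.6 FPKM (2.64 ± 0.58, limma adjusted p = 0.0371), with the libraries of each stage well apart from each other. LAMP1 had 145 and 118 against 65.7 and 63 FPKM (1.01 ± 0.18, limma adjusted p = 0.0268) and LAMP2 rose by 0.97. TFEB had 29.6 and 21.1 against 5.13 and 4.99 FPKM (2.10 ± 0.36, limma adjusted p = 0.0256), and GABARAPL1 18.2 and 18.3 against 4.21 and 1.77 FPKM (2.34 ± 0.57, limma adjusted p = 0.0458). The groups did not overlap for any of these 12 genes, which were picked by their call, so this adds no support. The share of all genes without overlap is not given here.

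Monocyte and macrophage markers moved with this comparison. Over 12 markers the summed level was 355 to 399 FPKM in survivors and 35.2 to 62.7 FPKM in untreated cells, most of it CD68, itself a lysosomal membrane protein, with 365 and 298 FPKM in survivors and 56.2 and 30.0 FPKM in untreated cells; 2 markers were listed at 0 in survivors and 3 in untreated cells. MKI67 had 2.44 and 1.16 FPKM in survivors and 95.4 and 80.2 FPKM in untreated cells. Their part in the members' changes was not tested.

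At 13 days in drug-free medium the libraries of the stage differed from each other. MKI67 was at 46.7 FPKM in library 1 and 0.204 FPKM in library 2. GABARAPL1 had 8 and 23.7 FPKM, TFEB 14.6 and 30.0, CTSS 22.5 and 43.5 and LAMP2 76.6 and 116 FPKM, with library 1 the nearer to untreated cells for each. Other members went the other way, with library 2 the nearer. These included MAN2B1 with 706 and 511 FPKM, CTSZ with 205 and 192, ATP6V0D1 with 113 and 82.1 and CTSH with 20.5 and 15.8 FPKM. Against untreated cells 1 member was called, DNASE2, with 22.9 and 43.2 FPKM against 0.51 and 0.244 FPKM (4.57 ± 0.35, limma adjusted p = 0.00929; 0.133% of all genes were called higher and 0.381% either way). DNASE2 lost its call without either untreated library, and its log2 fold change ran from 4.13 to 6.11 over the alternatives. PSAP, at 253 and 357 FPKM, and LAMP1, at 141 and 177 FPKM, lay above both untreated libraries and were not called.

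TPP1 was the 1 member called between 13 days and survivors, lower at 106 and 163 FPKM against 480.1 and 389.6 FPKM (-1.71 ± 0.24, limma adjusted p = 0.0442; 0.669% of all genes were called lower). This call was lost without either survivor library or 13 day library 1. The log2 fold change of TPP1 ran from -2.02 to -1.40 over the alternatives. CTSB, at 135 and 157 FPKM, lay below both survivor libraries and above both untreated ones. GAA, at 75.5 and 79.8 FPKM, lay within the survivors' range, and CTSD, at 178 and 236 FPKM, overlapped it.

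**Figure D4:**
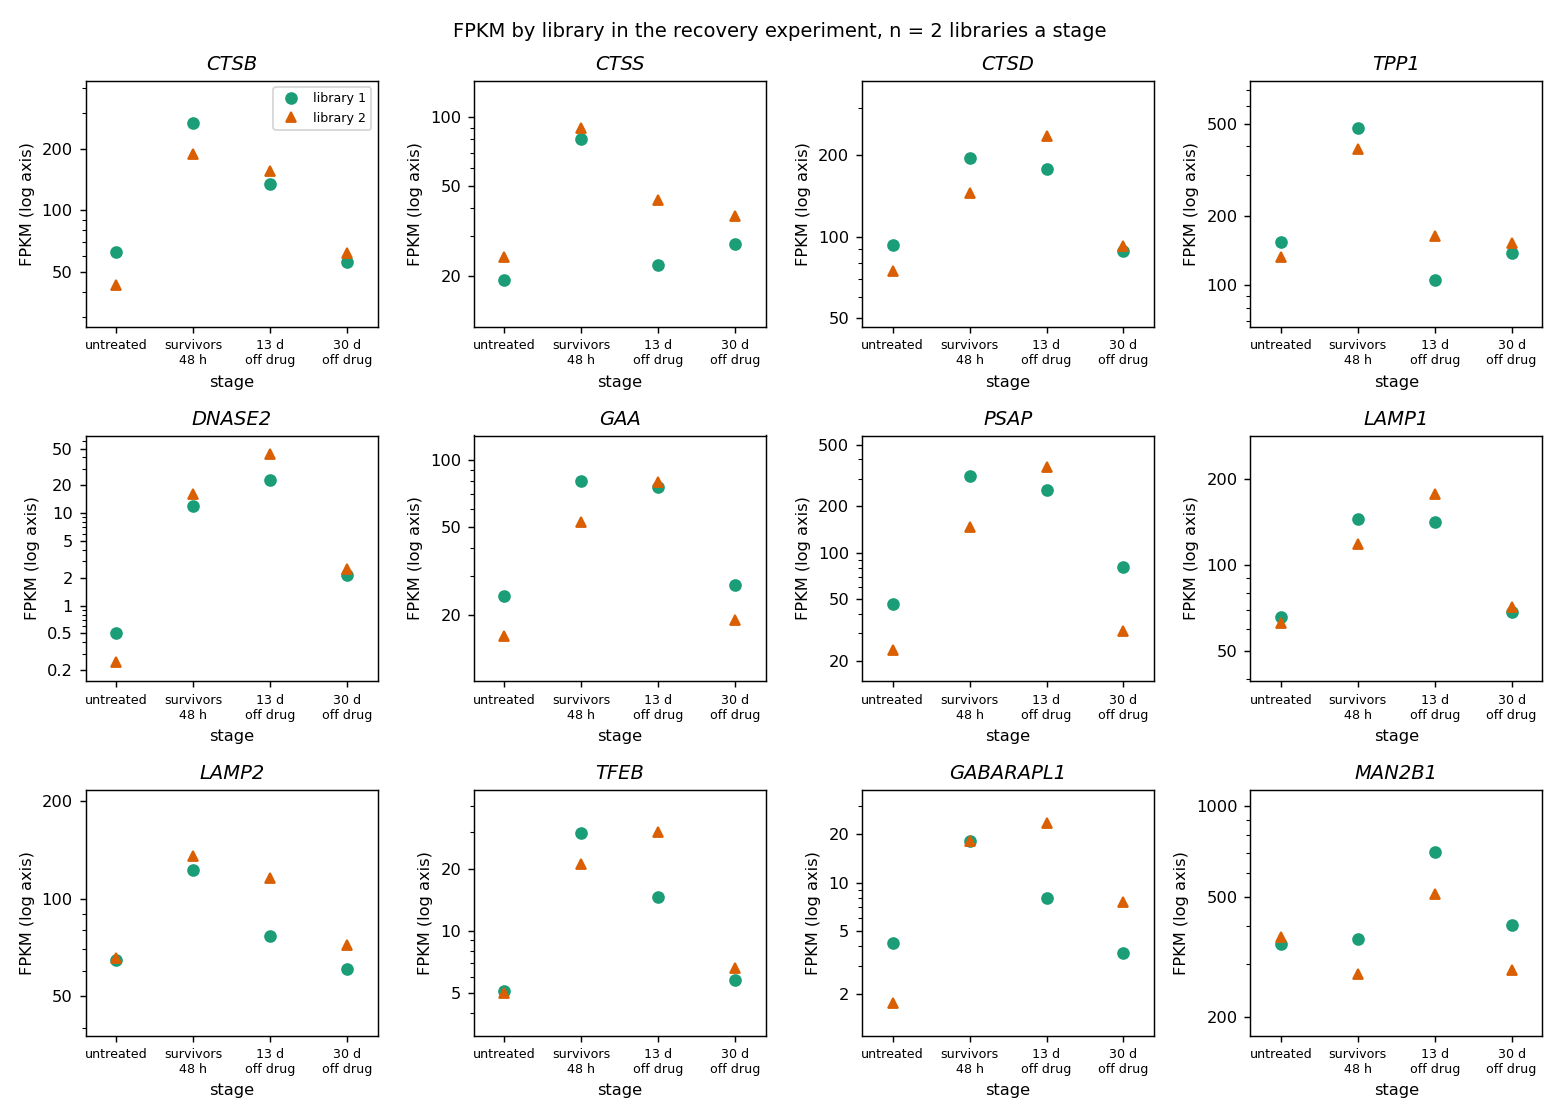
FPKM (log axes) of 12 members by stage: untreated, survivors of 48 h in quizartinib at 100 nM, then 13 and 30 days off drug, with each library as a point. TPP1 is high at the survivor stage alone, DNASE2 is highest at 13 days with 22.9 and 43.2 FPKM, and most other members are near untreated levels by 30 days.

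By 30 days no member was called against untreated cells by limma, where 3 of 36 had an unadjusted p under 0.05 and 0.127% of all genes were called. Against survivors, 7 members were lower and none higher (19.4%; 5.48% and 4.71% of all genes were called lower and higher, 10.2% in all). These were CTSB with 55.7 and 61.9 FPKM against 269 and 189.8 in survivors (-1.93 ± 0.25, limma adjusted p = 0.0226), DNASE2 with 2.16 and 2.48 against 12 and 16.1 FPKM (-2.17 ± 0.35, limma adjusted p = 0.0295), LAMP2 with 60.6 and 72.3 against 123 and 136 FPKM (-0.95 ± 0.23, limma adjusted p = 0.0497) and TFEB with 5.76 and 6.62 against 29.6 and 21.1 FPKM (-1.86 ± 0.36, limma adjusted p = 0.0363), besides TPP1, GAA and LAMP1. All 7 calls were lost without any 1 of the 4 libraries, with lowest limma adjusted p of 0.0966 to 0.161. DNASE2 at 30 days lay above both untreated libraries, without a call. It was also the 1 member called between 30 and 13 days (-3.29 ± 0.35, limma adjusted p = 0.0223, where 0.0774% of all genes were called lower), a call lost without any library but 13 day 1.

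The recovery and drug experiments each hold cells after 48 h of quizartinib with controls of their own, at 100 nM and 10 nM, in different units, so values are set side by side. Over 36 members in both, 11 were called higher in both experiments: CTSB, CTSD, CTSS, DNASE2, GAA, TPP1, PSAP, LAMP1, LAMP2, TFEB and GABARAPL1. A further 8 were called higher at 10 nM and not in the survivors, 3 (GUSB, ATP6V0D1 and CTSC) were called lower at 10 nM and not in the survivors, and GLB1 was called in the survivors and not at 10 nM. Signs were alike for 25 of 36. Across these genes, which share libraries and are not independent, Pearson's r of the log2 fold changes was 0.84 and Spearman's rho 0.78. Of all genes, 29.0% were called higher at 10 nM and 8.14% in the survivors. The share of all genes called higher in both experiments, and the correlation over all genes, are not given here. The likeness is therefore not shown to be particular to the members.

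**Figure D5:**
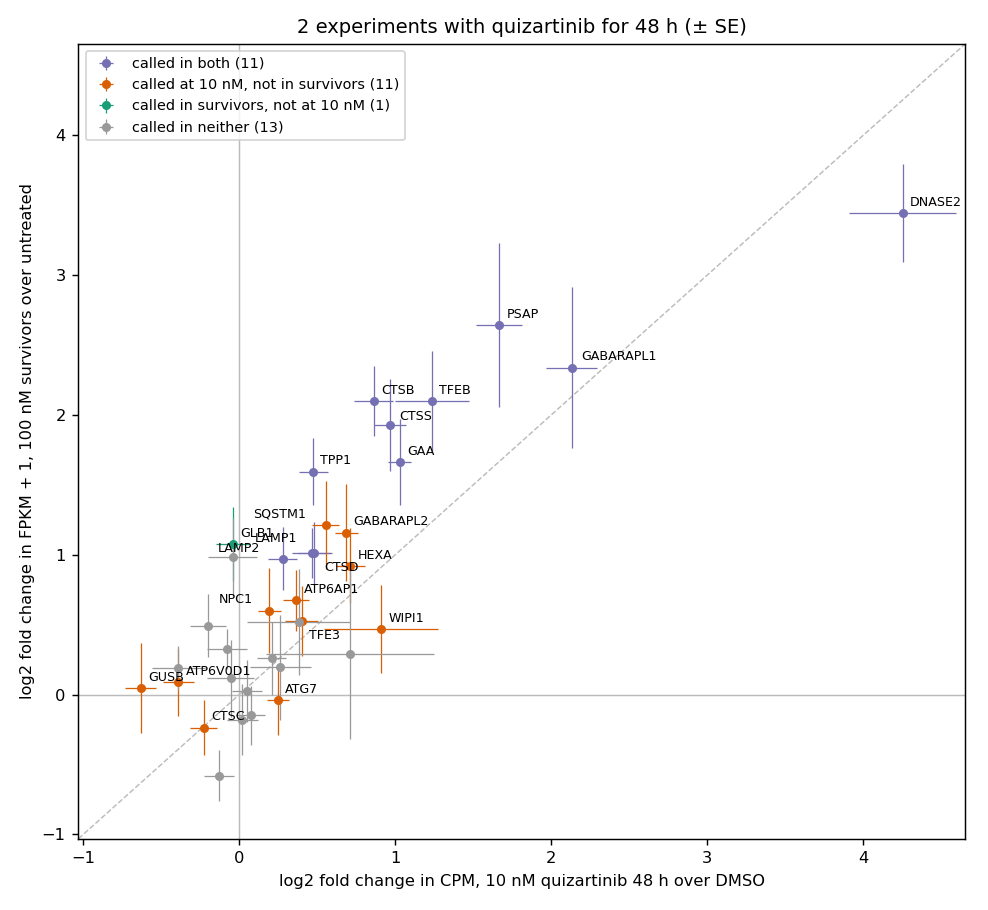
Log2 fold change (± SE) of 36 members with 10 nM quizartinib for 48 h over DMSO (horizontal, CPM) and in survivors of 48 h in 100 nM quizartinib over untreated cells (vertical, FPKM + 1), coloured by call, with a dashed line of equality. DNASE2 is the highest on both axes, at 4.25 and 3.44, and GUSB at -0.63 and 0.05 is the lowest on the horizontal axis.

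Other genes of the same pathways were taken from a list of 125, of which 121 have counts. With quizartinib at 48 h, 58 of these were higher and 27 lower, with a median log2 fold change of 0.24, where 29.0% and 30.4% of all genes were called higher and lower and their median was 0.02. By group, 17 of 26 hydrolases and cofactors, 14 of 21 membrane and sorting genes, 3 of 14 proton pump genes, 20 of 41 autophagy genes and 4 of 19 genes of lysosomal mTORC1 and TFEB control were higher, while 4, 3, 5, 7 and 8 were lower, to be read against the same shares of all genes. The largest rises were SGSH, a sulfatase for heparan sulfate, with 11.1, 11.6 and 8.68 CPM against 2.79, 2.86 and 1.75 CPM with DMSO (2.08 ± 0.23, edgeR adjusted p = 6.18e-07), the cathepsin CTSF (1.86 ± 0.16) and ATG16L2 (1.51 ± 0.13). The largest falls were LAPTM4B, a late endosomal membrane protein, with 0.821, 0.717 and 0.955 CPM against 7.76, 9.63 and 7.51 CPM (-3.31 ± 0.22, edgeR adjusted p = 7.97e-10), FNIP2, a partner of folliculin in mTORC1 control (-3.25 ± 0.33), and the mitophagy receptor BNIP3 (-1.47 ± 0.54), whose DMSO libraries had 11.3, 17.8 and 64 CPM and whose call was lost in 4 of 6 fits that left out a library (edgeR or DESeq2 adjusted p 0.0061 to 0.494 over the alternatives). CTSF was also called higher in the survivors, with 15.3 and 8.6 FPKM against 2.14 and 0.481 FPKM in untreated cells, among 20 of 119 listed genes higher and 0 lower by limma, where 8.14% and 6.39% of all genes were called higher and lower.

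With dexamethasone alone, 7 of these 121 were higher and 11 lower, where 5.5% and 6.63% of all genes were called higher and lower. On top of quizartinib at 48 h, 4 were higher and 14 lower, where 5.62% and 4.63% of all genes were called higher and lower. SGSH was lower in both, at 1.49, 0.77 and 0.722 CPM against 2.79, 2.86 and 1.75 CPM with DMSO (-1.29 ± 0.26) and at 3.27, 2.69 and 2.93 CPM with both drugs against 11.1, 11.6 and 8.68 CPM with quizartinib (-1.81 ± 0.23, edgeR adjusted p = 3.5e-05). LAPTM4B was higher with dexamethasone alone, at 18.6, 21.7 and 16.7 CPM against 7.76, 9.63 and 7.51 CPM (1.19 ± 0.17), and its interaction was -1.95 ± 0.32 (edgeR adjusted p = 0.00346). GABARAP, of the same family as GABARAPL1, was lower with both drugs, at 118, 112 and 102 CPM against 189.8, 173 and 197 CPM with quizartinib (-0.76 ± 0.09, edgeR adjusted p = 1.57e-05), where GABARAPL1 was higher. TFEC, another MiT/TFE gene, had 26.2, 25.2 and 18.4 CPM with dexamethasone against 44.9, 46 and 43.4 CPM with DMSO (-0.94 ± 0.12) and 137, 152 and 142 CPM with quizartinib at 5 days (1.68 ± 0.12).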

How the data were processed

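RNA of MV4-11 cells was sequenced as 18 drug libraries and 8 recovery libraries. Per the submitters' processing notes, STAR 2.7.3 and RSEM (GRCh38) are named for the drug libraries and TopHat2 2.0.9 and Cuffdiff (hg38) for the recovery libraries, with no role or order. The deposited counts are whole numbers per gene, and how RSEM estimates became whole is not given in the sources used here. The deposited FPKM are scaled by transcript length and library size, as the authors made them; the lowest steps of single-exon genes imply 18.8 to 27.1 M fragments per library.

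Counts were tested with edgeR 4.0.16 (TMM, quasi-likelihood, 1 model over 6 groups) in R 4.3.3. FPKM were tested with limma 3.58.1 (1 model over 4 stages) on log2(FPKM + 1), for genes with at least 1 FPKM in 2 libraries. P-values were adjusted over all genes of each comparison (Benjamini-Hochberg, threshold 0.05), and 15 comparisons were made. Both fits were tested on simulated data. Alternatives were DESeq2 1.42.0, the replicate number as a block, other filters, pseudocounts and scalings, and each library left out. Same-numbered libraries deviated together in every pair, with correlations over 0.1, for the 48 h groups and for quizartinib at 5 days against DMSO or quizartinib at 48 h (0.11 to 0.815). This was not so between the 5 day groups (-0.029 to 0.123) or in recovery (0.012 to 0.086).

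Values in every library are given for called members with the largest rise or fall in their class, with some others for contrast. At most 3 rises and 3 falls per comparison are named outside the members. Members and lists were chosen with earlier results of these data known. Overlaps were read from GENCODE 29 and promoters from RefSeq.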

Additional observations from a re-analysis of the deposited data

Results flagged for a closer look

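The effect of dexamethasone at 48 h differed between cells with and without quizartinib for 2 members, by the interaction term of edgeR. For CTSB the difference was -0.83 on the log2 scale, with effects of 0.70 with quizartinib and 1.53 without it. For TPP1 it was -0.55, with effects of -0.52 and 0.03. Both calls were lost in a fit of the 48 h groups alone (edgeR adjusted p = 0.0622 for CTSB and 0.0857 for TPP1). That of TPP1 was also lost without 8 of the 12 libraries, each left out in turn.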

How the results depend on the processing

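No called value of a named gene changed sign under an alternative: 1667 such values kept their call and 357 lost it. Of members not called, NPC2 in the combination against DMSO turned, with log2 fold changes of 0.25 (edgeR adjusted p = 0.0483) without the 48 h libraries numbered 3 and -0.02 with them. Counts of called members moved as follows. The share of all genes called in each alternative fit is not given here, so a moved count is no result about the members. With only the compared groups in the fit, dexamethasone had 3 (9 in the full fit), the interaction 0 (2), quizartinib at 5 days against 48 h 5 (2) and the combination against quizartinib at 5 days 14 (9). Without the 48 h libraries numbered 3, the last had 14 and the interaction 1. DESeq2 gave the interaction 4. With the replicate block the interaction had 4 calls; no call of the paired comparisons was lost, and the gains stand in the report. In recovery, where numbers do not pair libraries, the block left 9 calls in survivors, 5 at 30 days and 0 at 13 days against survivors, and at 5 days the combination had 11. With no FPKM filter, survivors had 4 calls (12), 30 days against survivors 1 (7), and 13 days against survivors and 30 against 13 days 0. Shifting medians gave 13 days 2 against untreated cells and 0 against survivors, and a fit with no trend also gave 0 for 13 days against survivors. Leaving out 1 library gave 6 to 9 calls for the combination against quizartinib at 48 h, 4 to 7 at 5 days, 1 to 4 for the interaction, 0 to 1 for quizartinib at 5 days against 48 h, 0 to 0 for survivors and for 30 days against survivors, 0 to 12 for 13 days against untreated cells, 0 to 5 against survivors and 0 to 7 for 30 against 13 days. The cause was not tested. With 2 libraries a stage, every recovery call was lost without at least 1 library, and low members such as CTSL rest on few counts.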
